A study of Mus musculus with 12 samples.

Results

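CD11c+ MHCII+ cells sorted from mouse synovium were compared after 4 h with and without calcitonin gene-related peptide (CGRP), a neuropeptide that pain-sensing nerve endings release. The comparison takes the 3 libraries titled CD11c_CGRP and the 3 titled CD11c_Healthy, 6 of the 12 libraries in the series, and covers every gene that could be tested. In both groups the whole synovium came from wild-type C57BL/6 mice, whose age the labels do not give, was kept as an explant for 4 h, was digested with collagenase and was sorted in the same way. The groups therefore share the dissection, the culture and the gate, and differ in whether 100 nM CGRP was present. The libraries without it are called control below. The labels name no pooling of mice, no separate cultures and no batch, so that p-values here measure the spread between libraries, which may be technical. The other 6 libraries hold I-A/I-E+ cells without CD11c from explants treated alike, titled IAIE, and enter only through the shared estimate of the spread and the last comparison.

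Total RNA was sequenced, and levels are given as CPM, the reads counted for a gene relative to the scaled size of its library. Depth ran from 2455650 to 5649698 counts over the 6 CD11c libraries. A detection floor was set at 3 counts in a library, or 0.531 to 1.22 CPM. Floors cover counting error only, because the libraries were amplified by PCR. Mitochondrial ribosomal RNA took 7.12% to 9.37% of the counts. Of 11927 genes tested with edgeR's quasi-likelihood test, 1298 passed a Benjamini-Hochberg adjusted p of 0.05, which is 10.9% of those tested. There were 750 genes higher with CGRP (6.29%) and 548 lower (4.59%). That balance depended on the fit, because with offsets for GC content and transcript length 601 were higher and 802 lower. The median log2 fold change of all tested genes was 0.0016, and 457 of the genes that rose and 223 of those that fell changed by at least 1 on the log2 scale. The plot of all genes shows both groups of calls across the whole range of expression.

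**Figure D1:**
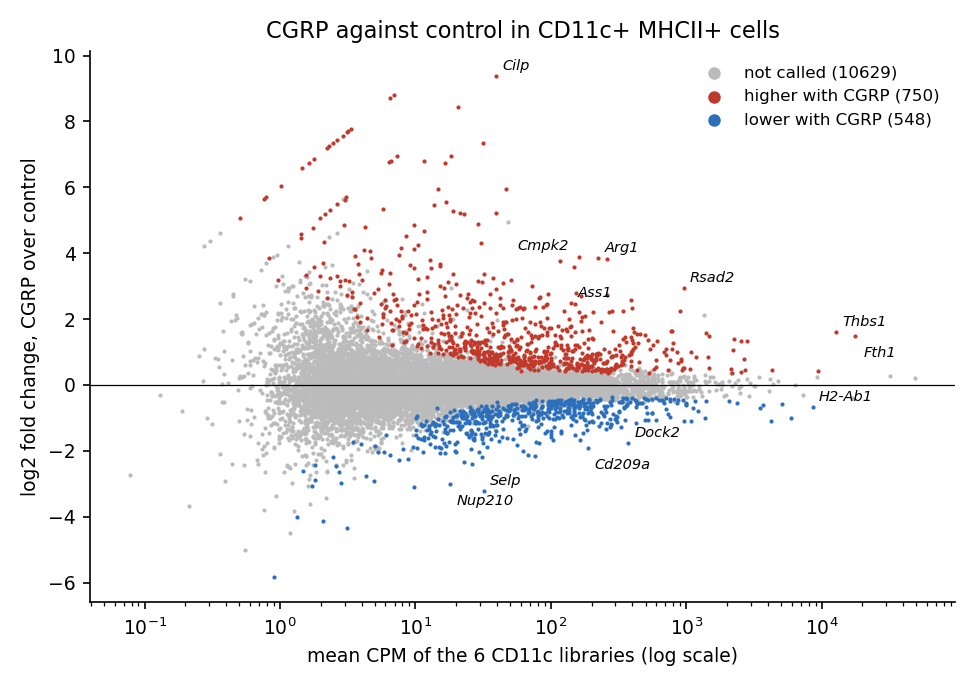
Each point is 1 of the 11927 tested genes, with its mean CPM over the 6 CD11c libraries on a log axis and its log2 fold change (CGRP over control) on the y axis. The 750 genes higher with CGRP are red, the 548 lower are blue and the others are gray, and the changes of genes that rose reach farther from 0 at low expression.

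CGRP signals through a receptor made of calcitonin receptor-like receptor (CALCRL) and the accessory protein RAMP1. In the textbook pathway the receptor raises cyclic AMP, protein kinase A is activated and the transcription factor CREB is phosphorylated at its target genes. Synovial cells that carry CD11c and MHC class II take up antigen, display peptides to T cells and include macrophages and dendritic cells, which share many surface markers.

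The cell type on the labels was checked against marker genes. The labels call these cells macrophages, and genes of both macrophages and dendritic cells were detected. *Adgre1*, which encodes the macrophage antigen F4/80, was at 278, 264 and 273 CPM in control and 233, 208 and 181 CPM in CGRP libraries, and *Csf1r*, the receptor for macrophage colony-stimulating factor, at 633, 628 and 515 CPM in control and 566, 384 and 415 CPM in CGRP libraries. The dendritic cell gene *Zbtb46* was at 75.5, 80.2 and 77.3 CPM in control and 57.4, 53.7 and 69.0 CPM in CGRP libraries. None of these passed the test (-0.39 ± 0.13, -0.38 ± 0.15 and -0.37 ± 0.23 on the log2 scale), although *Adgre1* lay just outside the threshold and was called in 13 of 24 other fits. *Flt3*, the growth factor receptor of dendritic cells, was at 16.2, 19.8 and 19.4 CPM in control and 4.58, 1.48 and 7.26 CPM in CGRP libraries and fell (log2 fold change -2.03 ± 0.53, edgeR adjusted p 0.0169). Of 27 dendritic cell genes tested, 6 rose (22.2%) and 7 fell (25.9%), and of 21 macrophage genes 4 rose (19.0%) and 4 fell (19.0%). Among all tested genes 6.29% rose and 4.59% fell. The macrophage genes that rose numbered 2 without CGRP replicate 1 or 3 or control replicate 1 or 3, and those that fell numbered 9 without CGRP replicate 1. The call of *Flt3* was lost without CGRP replicate 2 (edgeR adjusted p 0.0691).

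Markers of other cells were summed in each library over all listed genes that were counted, tested or not. The 15 mural cell and smooth muscle genes, of which 6 were tested, summed to 36.5, 29.3 and 36.3 CPM in control and 374, 58.6 and 201 CPM in CGRP libraries. The 20 fibroblast genes (14 tested) summed to 474, 429.8 and 396 CPM in control and 962, 865 and 664 CPM in CGRP libraries. The 13 neutrophil genes (10 tested) summed to 19.1, 131 and 597 CPM in control and 20.8, 293 and 57.5 CPM in CGRP libraries. The 6 tested mural genes all rose, but 3 did without CGRP replicate 3, 2 without control replicate 2 or 3 and 1 to 6 over other settings. Mural sums were higher in each CGRP library than in any control library, while neutrophil sums overlapped between the groups. The 19 B cell genes (14 tested) summed to 57.2, 74.7 and 51.9 CPM in control and 35.5, 21.9 and 17.2 CPM in CGRP libraries, and this sum was lower in every CGRP library. *Cd79a*, a defining B cell gene, was at 0.406, 2.79 and 1.28 CPM in control and 1.34, 2.46 and 0 CPM in CGRP libraries, low in all 6 libraries. The 11 erythroid and platelet genes summed to 98.6, 118 and 89.6 CPM in control and 295, 198 and 265 CPM in CGRP libraries, so that the groups stood apart. In bulk RNA fewer cells of a type and less RNA per cell cannot be told apart. The part of these cells in the results below was not tested.

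The genes with the smallest p-values that rose are described first. *Ass1* (argininosuccinate synthase, which rebuilds arginine from citrulline; chromosome 2, 31470207 to 31520672, GRCm38) was at 37.7, 46.5 and 43.96 CPM in control and 215, 291 and 214 CPM in CGRP libraries (log2 fold change 2.48 ± 0.18, edgeR adjusted p 1.50e-07). *Fth1* (ferritin heavy chain, the iron store; chromosome 19, 9980598 to 9985098, GRCm38) was at 9681, 9619 and 8767 CPM in control and 23703, 29663 and 24499 CPM in CGRP libraries (log2 fold change 1.47 ± 0.11, edgeR adjusted p 1.50e-07). *Mmp12* (macrophage elastase; chromosome 9, 7344381 to 7369499, GRCm38) was at 135, 80.01 and 123 CPM in control and 624, 674 and 701 CPM in CGRP libraries (log2 fold change 2.57 ± 0.20, edgeR adjusted p 2.04e-07). For all 3 the lowest CGRP library lay above the highest control library. *Ms4a6d* was at 48.3, 45.4 and 41.8 CPM in control and 159.7, 140.1 and 150.4 CPM in CGRP libraries (log2 fold change 1.74 ± 0.13, edgeR adjusted p 1.50e-07). *Tnfrsf9*, which encodes the costimulatory receptor 4-1BB, was at 37.7, 36.3 and 41.4 CPM in control and 290.0, 220.4 and 296 CPM in CGRP libraries (log2 fold change 2.80 ± 0.23, edgeR adjusted p 3.73e-07). *Cd36*, a scavenger receptor for oxidized lipids, was at 748, 778 and 795 CPM in control and 1835, 2296 and 2413 CPM in CGRP libraries (log2 fold change 1.496 ± 0.14, edgeR adjusted p 1.32e-06). The 3 CGRP libraries were again the 3 highest for each. *Ass1* shares 40.1% of its sampled transcript words of 31 bases with other transcripts, so some of its reads may have been lost or misplaced in the counting.

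Genes with the smallest p-values that fell came from several processes. *Dock2* (an activator of Rac that leukocytes need to move; chromosome 11, 34226815 to 34783892, GRCm38) was at 607, 537 and 586 CPM in control and 202, 155 and 147 CPM in CGRP libraries (log2 fold change -1.78 ± 0.14, edgeR adjusted p 2.10e-07). *Cd209a* (a lectin of monocyte-derived dendritic cells; chromosome 8, 3743397 to 3748984, GRCm38) was at 302, 288 and 297 CPM in control and 81.7, 86.9 and 67.96 CPM in CGRP libraries (log2 fold change -1.91 ± 0.18, edgeR adjusted p 2.26e-06). *Wdfy4*, which dendritic cells use to cross-present cell-borne antigen, was at 146, 119.6 and 107 CPM in control and 23.8, 38.2 and 22.8 CPM in CGRP libraries (log2 fold change -2.14 ± 0.22, edgeR adjusted p 4.68e-06). Control and CGRP libraries stood clear of each other for all 3. *Klf2*, a transcription factor of quiescent leukocytes, was at 144, 144 and 164 CPM in control and 56.3, 61.8 and 66.7 CPM in CGRP libraries (log2 fold change -1.29 ± 0.13, edgeR adjusted p 4.30e-06). *Pld4*, an exonuclease of endolysosomes, was at 278, 236 and 239 CPM in control and 87.8, 78.1 and 71.9 CPM in CGRP libraries (log2 fold change -1.66 ± 0.18, edgeR adjusted p 6.24e-06). *Fgr*, a Src family kinase of myeloid cells, was at 80.8, 99.8 and 82.6 CPM in control and 30.5, 18.7 and 24.6 CPM in CGRP libraries (log2 fold change -1.83 ± 0.21, edgeR adjusted p 8.95e-06). Each of these was lower in every CGRP library. *Mbnl1*, *Adgre5*, *Iqgap2*, *Ckb*, *Naaa*, *Phldb1*, *Irag2*, *Camk1d* and *Nup210* were the other genes named by the same rule, with log2 changes from -1.16 to -3.02. All 30 genes with the smallest p-values, 15 each way, kept their call in every other fit that tested them.

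Among the lists drawn in the plot of members called, interferon-stimulated genes and interferon-inducible GTPases had the highest shares that rose, followed by glycolytic and hypoxia genes, and MHC class II genes had the highest share that fell. Dashed lines there give the shares among all tested genes.

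**Figure D2:**
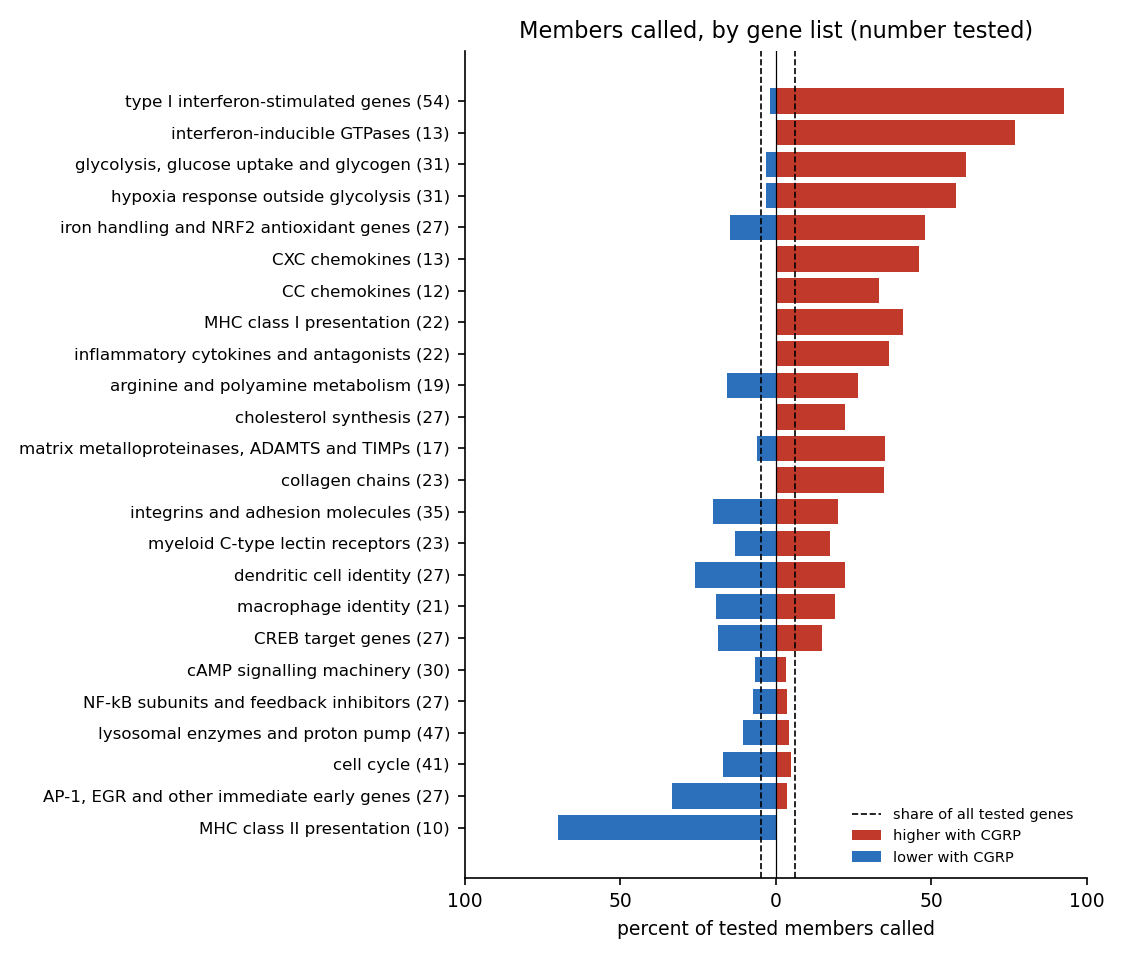
Bars give the percent of tested members of each list that were higher (right, red) or lower (left, blue) with CGRP at an adjusted p of 0.05, with the number tested in brackets. Dashed lines mark 6.29% higher and 4.59% lower among all tested genes, and the bar for type I interferon-stimulated genes reaches 92.6% on the right.

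Interferon-stimulated genes rose together. Type I interferons act through a receptor on the cell surface, and the genes they induce block viral replication and amplify the response. Of 54 tested, 50 rose (92.6%) and 1 fell (1.85%), against 6.29% and 4.59% of all tested genes. The median log2 fold change was 2.18 against 0.0016 over all tested genes. Leaving out any 1 library left 48 to 50 that rose, and other fits 44 to 50. The groups did not overlap for 51 of them, against 29.2% of all tested genes. In all 50 that rose, CGRP replicate 3 was the lowest of the 3 CGRP libraries. The summed level of the list was 2421, 3755 and 3659 CPM in control and 13495, 17117 and 8510.1 CPM in CGRP libraries, so that CGRP replicate 3 stood between the controls and the other CGRP libraries.

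To show the sequence next to these genes, RefSeq promoters (GRCm38.p6, from 250 bases before to 50 after the start) were searched on both strands for GAAANNGAAA, the core of the interferon-stimulated response element. It stood in 27 of 49 promoters of the list (55.1%, from 40 of 54 genes with an entry), in 3.35% of promoters of tested genes and in 3.44% of all 32851. It was found in 8 of 9 promoters of interferon-inducible GTPases, in 23.8% of 21 MHC class I promoters and in 0 of 8 MHC class II promoters. A match is a run of letters and not a shown binding site. Among the 8 members with the smallest p and a single RefSeq start, *Cmpk2*, *Samd9l* and *Phf11d* had no match in their 300 bases. The other 5 are given as 160 bases upstream of the start, 5′ to 3′ on the gene's strand, with the matched bases in capitals, to show where the element lies in the genes that rose most clearly.
Slfn5 (chr11:82951942-82952101, plus strand): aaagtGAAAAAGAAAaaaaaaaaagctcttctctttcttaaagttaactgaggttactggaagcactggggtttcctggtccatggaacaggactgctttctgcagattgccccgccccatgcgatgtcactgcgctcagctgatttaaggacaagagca
Ifi205 (chr1:174031756-174031915, minus strand): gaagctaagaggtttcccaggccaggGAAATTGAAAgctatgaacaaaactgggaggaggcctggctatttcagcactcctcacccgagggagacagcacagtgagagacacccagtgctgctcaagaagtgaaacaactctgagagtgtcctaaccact
Ifit3 (chr19:34583369-34583528, plus strand): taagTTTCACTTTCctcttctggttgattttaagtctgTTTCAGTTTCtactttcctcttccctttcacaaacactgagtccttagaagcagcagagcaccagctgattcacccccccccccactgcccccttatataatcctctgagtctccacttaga
Rsad2 (chr12:26456453-26456612, minus strand): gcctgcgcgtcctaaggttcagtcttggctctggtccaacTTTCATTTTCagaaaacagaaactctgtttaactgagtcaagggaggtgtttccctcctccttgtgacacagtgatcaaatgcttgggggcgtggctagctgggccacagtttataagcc
Ifi211 (chr1:173913047-173913206, minus strand): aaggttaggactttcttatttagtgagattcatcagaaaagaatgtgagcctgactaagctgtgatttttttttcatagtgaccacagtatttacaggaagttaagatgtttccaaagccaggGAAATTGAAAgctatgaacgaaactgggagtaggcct
The first matched base lies 155 bases before the start in *Slfn5*, 134 in *Ifi205*, which has another match outside the bases shown, 156 and 122 in *Ifit3*, 120 in *Rsad2* and 37 in *Ifi211*.

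The members of the list cover the arms of the response. *Cmpk2*, a mitochondrial nucleotide kinase next to *Rsad2*, was at 17.04, 19.1 and 24.3 CPM in control and 372, 383 and 159.8 CPM in CGRP libraries (log2 fold change 3.90 ± 0.37, edgeR adjusted p 2.13e-06). *Rsad2*, which encodes viperin, was at 136, 293 and 225 CPM in control and 2058, 2165 and 849.7 CPM in CGRP libraries (log2 fold change 2.95 ± 0.35, edgeR adjusted p 1.16e-05). *Ifit3*, which binds viral RNA complexes, was at 2.43, 19.3 and 22.8 CPM in control and 236, 276 and 140.2 CPM in CGRP libraries (log2 fold change 3.76 ± 0.42, edgeR adjusted p 7.51e-06). Even the lowest CGRP library, replicate 3, lay above every control library for all 3. *Isg15*, a ubiquitin-like protein, was at 56.0, 62.6 and 81.3 CPM in control and 287, 393 and 184 CPM in CGRP libraries (log2 fold change 2.10 ± 0.27, edgeR adjusted p 2.47e-05). *Zbp1*, a sensor of Z-form nucleic acid, was at 15.01, 23.03 and 34.4 CPM in control and 145, 219.6 and 137 CPM in CGRP libraries (log2 fold change 2.75 ± 0.27, edgeR adjusted p 2.81e-06). Genes of transcription factors of the response rose as well. *Stat2* was at 54.0, 65.4 and 63.4 CPM in control and 167, 226 and 124 CPM in CGRP libraries (log2 fold change 1.49 ± 0.28, edgeR adjusted p 0.00116) and *Irf7* at 16.6, 62.6 and 55.1 CPM in control and 239.6, 315 and 208 CPM in CGRP libraries (log2 fold change 2.46 ± 0.30, edgeR adjusted p 1.92e-05). *Ifit3* shares 59.3% and *Ifi211* 78.3% of their sampled transcript words with near-copies, so their own share of the counts is uncertain.

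Not every member moved that way. *Siglec1*, a sialic acid-binding receptor of macrophages, was at 23.5, 40.5 and 38.8 CPM in control and 15.3, 11.3 and 11.2 CPM in CGRP libraries and fell (log2 fold change -1.46 ± 0.23, edgeR adjusted p 0.000208), with the groups apart. *Ifitm3*, a membrane protein that stops viral entry, was at 141, 137 and 137 CPM in control and 165, 182 and 119.6 CPM in CGRP libraries and was not called (log2 fold change 0.17 ± 0.21, edgeR adjusted p 0.717). *Ifnb1*, which encodes interferon-beta itself, was at 4.87, 6.98 and 4.05 CPM in control and 26.7, 45.3 and 6.90 CPM in CGRP libraries (log2 fold change 2.28 ± 0.57, edgeR adjusted p 0.0121). Its CGRP libraries differed widely, with replicate 3 below 1 of the control libraries. The call of *Ifnb1* was lost without CGRP replicate 2 or control replicate 3 (edgeR adjusted p 0.0682 to 0.0775). GTPases that coat and break pathogen vacuoles rose in 10 of 13 cases (76.9%, against 6.29% of all tested genes, median log2 fold change 1.34). *Iigp1* was at 1.22, 0.465 and 0.854 CPM in control and 14.9, 19.9 and 9.91 CPM in CGRP libraries (log2 fold change 4.17 ± 0.45, edgeR adjusted p 5.39e-06), and *Igtp* at 5.28, 6.75 and 6.403 CPM in control and 61.4, 68.5 and 36.1 CPM in CGRP libraries (log2 fold change 3.14 ± 0.41, edgeR adjusted p 3.47e-05).

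Of 25 suppressors and transcription factors of cytokine signaling, 7 rose (28%) and 3 fell (12%), against 6.29% and 4.59% of all tested genes. Without CGRP replicate 1 or control replicate 2, 4 rose. *Socs1*, a feedback inhibitor, was at 8.12, 10.2 and 14.1 CPM in control and 26.1, 31.3 and 16.5 CPM in CGRP libraries (log2 fold change 1.16 ± 0.29, edgeR adjusted p 0.0129), and *Socs2* and *Irf1* rose by 1.26 ± 0.33 and 0.68 ± 0.18. The call of *Socs1* was lost without CGRP replicate 1 or 2 or control replicate 1 or 2 (edgeR adjusted p 0.0542 to 0.0828). The call of *Socs2* was lost without CGRP replicate 1 or 3 or control replicate 2 or 3 (edgeR adjusted p 0.0520 to 0.0809). The call of *Irf1* was lost without CGRP replicate 1 or 2 or control replicate 1 or 2 (edgeR adjusted p 0.0636 to 0.0984). *Irf4*, a transcription factor that MHC class II-rich dendritic cells depend on, was at 307, 282 and 256 CPM in control and 127, 154 and 108 CPM in CGRP libraries (log2 fold change -1.12 ± 0.15, edgeR adjusted p 4.92e-05). *Jak1*, the kinase shared by interferon receptors, was at 722, 655 and 595 CPM in control and 355, 367 and 370.4 CPM in CGRP libraries (log2 fold change -0.85 ± 0.13, edgeR adjusted p 0.000150). *Batf*, a partner of IRF4 on DNA, was at 75.5, 47.2 and 30.3 CPM in control and 20.4, 18.5 and 17.3 CPM in CGRP libraries (log2 fold change -1.43 ± 0.30, edgeR adjusted p 0.00289). These 3 were lower in each CGRP library than in any control library. *Irf2*, an antagonist of IRF1, was at 75.5, 70.2 and 71.5 CPM in control and 117, 131 and 134 CPM in CGRP libraries (log2 fold change 0.82 ± 0.15, edgeR adjusted p 0.00101), and *Socs3*, a feedback inhibitor of cytokine receptors, was at 666, 675 and 732 CPM in control and 741, 687 and 593 CPM in CGRP libraries and was not called (log2 fold change -0.04 ± 0.12, edgeR adjusted p 0.909).

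**Figure D3:**
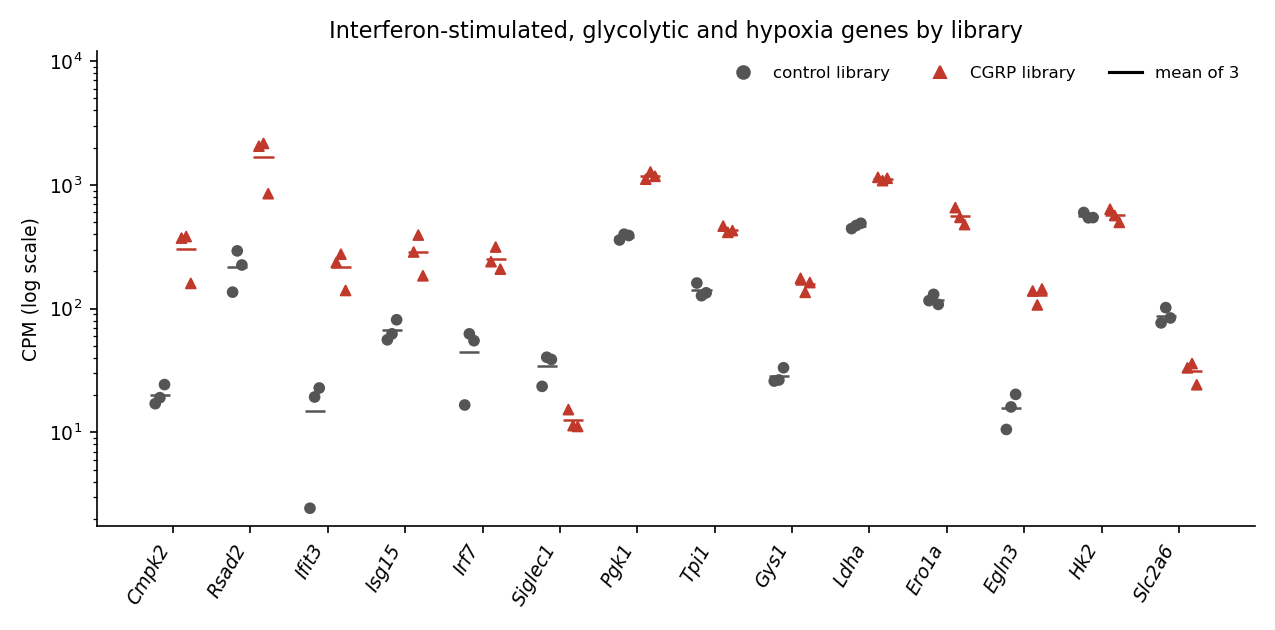
CPM of 14 genes on a log axis, with a gray circle for each of the 3 control libraries, a red triangle for each of the 3 CGRP libraries and a line at each mean. CGRP triangles lie above the control circles for the interferon-stimulated, glycolytic and hypoxia genes from *Cmpk2* to *Egln3*, apart from *Siglec1*, which fell; *Hk2* overlaps and *Slc2a6* fell.

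Glycolysis and the hypoxia response made up the other large group that rose. Glycolysis turns glucose into pyruvate and lactate, and hypoxia-inducible factors switch on its enzymes together with genes of oxygen sensing and collagen hydroxylation. Of 31 genes of glycolysis, glucose uptake and glycogen tested, 19 rose (61.3%) and 1 fell (3.23%), against 6.29% and 4.59% of all tested genes. The median log2 fold change was 1.09, and 18 to 20 rose when any 1 library was left out. The summed level of this list was 7365, 7531 and 6509 CPM in control and 16722, 16810.3 and 16418 CPM in CGRP libraries, with little difference among the CGRP libraries. Of 31 hypoxia genes outside glycolysis, 18 rose (58.1%) and 1 fell (3.23%) (median 0.89), with 14 to 18 that rose without any 1 library. CGRP replicate 3 was the lowest CGRP library for 6 of 19 glycolytic and 7 of 18 hypoxia genes that rose, against 50 of 50 in the interferon list.

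The promoters of these genes were searched for ACGTG, the core bound by hypoxia-inducible factors together with other bHLH proteins. It stood in 21 of 43 glycolysis promoters (48.8%, from 29 of 31 genes) and 21 of 34 hypoxia promoters (61.8%, from 23 of 31 genes). The share was 25.8% for promoters of tested genes, 19.6% for all promoters and 4.08% for the interferon list. Over all 750 genes that rose it was 22.03%, and over the 548 that fell 21.5%. The looser pattern GCGTG or ACGTG was present in 61.8% of promoters of tested genes, 74.4% of the glycolysis and 79.4% of the hypoxia promoters. Of the 8 members of both lists with the smallest p and a single start, *Tpi1*, *Gys1*, *Gbe1* and *Gpi1* had no ACGTG in their 300 bases. The 160 bases upstream of the other 4 show the core in capitals, on either strand.
Pgk1 (chrX:106186940-106187099, plus strand): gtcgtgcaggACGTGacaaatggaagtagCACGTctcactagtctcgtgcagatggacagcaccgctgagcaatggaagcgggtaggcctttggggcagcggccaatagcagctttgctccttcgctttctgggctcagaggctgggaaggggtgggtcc
Ero1a (chr14:45318573-45318732, minus strand): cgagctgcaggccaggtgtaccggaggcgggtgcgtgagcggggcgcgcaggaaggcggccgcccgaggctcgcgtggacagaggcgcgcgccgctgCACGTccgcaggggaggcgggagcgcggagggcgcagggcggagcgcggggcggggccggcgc
Fam162a (chr16:36071562-36071721, minus strand): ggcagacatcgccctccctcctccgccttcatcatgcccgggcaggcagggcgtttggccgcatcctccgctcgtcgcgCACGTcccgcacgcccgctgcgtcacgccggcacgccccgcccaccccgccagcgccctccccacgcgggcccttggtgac
Slc2a1 (chr4:119108585-119108744, plus strand): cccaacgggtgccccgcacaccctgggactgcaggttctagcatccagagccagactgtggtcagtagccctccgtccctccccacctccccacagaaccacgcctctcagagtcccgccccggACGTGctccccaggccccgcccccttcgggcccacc
The first matched base lies 150 and 131 bases before the start in *Pgk1*, 63 in *Ero1a*, 81 in *Fam162a* and 36 in *Slc2a1*.

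Enzymes of early and late steps rose. *Slc2a1*, the glucose transporter GLUT1, was at 532, 481 and 499 CPM in control and 1220.2, 1034 and 969 CPM in CGRP libraries (log2 fold change 1.09 ± 0.12, edgeR adjusted p 5.05e-06). *Hk1*, which traps glucose as its phosphate, was at 203, 183 and 189.9 CPM in control and 453, 379.7 and 388 CPM in CGRP libraries (log2 fold change 1.08 ± 0.12, edgeR adjusted p 6.48e-06). *Pfkl*, a subunit of the committed step, was at 138, 146 and 156 CPM in control and 289.6, 274 and 289.6 CPM in CGRP libraries (log2 fold change 0.95 ± 0.13, edgeR adjusted p 3.67e-05). The 3 CGRP libraries were the 3 highest each time. *Tpi1*, *Pgk1*, *Eno1* and *Pkm* carry out later steps. *Tpi1* was at 161, 127 and 134 CPM in control and 465, 414 and 427 CPM in CGRP libraries (log2 fold change 1.63 ± 0.13, edgeR adjusted p 2.97e-07). *Pkm*, which makes pyruvate, was at 1454, 1399 and 1421 CPM in control and 3445, 3698 and 3741 CPM in CGRP libraries (log2 fold change 1.35 ± 0.10, edgeR adjusted p 2.04e-07). *Ldha*, which turns pyruvate into lactate, was at 444, 470.3 and 490.0 CPM in control and 1152, 1083 and 1132 CPM in CGRP libraries (log2 fold change 1.26 ± 0.11, edgeR adjusted p 9.81e-07). The lactate exporter gene *Slc16a3* was at 242, 291 and 241 CPM in control and 511, 579 and 510.1 CPM in CGRP libraries (log2 fold change 1.05 ± 0.15, edgeR adjusted p 6.95e-05), and again no CGRP library fell among the controls. *Pgk1* shares 53.9%, *Pkm* 32.3% and *Ldha* 22.9% of their sampled words with other transcripts, processed pseudogenes among them.

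Glycogen genes rose too. *Gys1*, glycogen synthase, was at 26.0, 26.5 and 33.3 CPM in control and 176, 135 and 162 CPM in CGRP libraries (log2 fold change 2.46 ± 0.22, edgeR adjusted p 1.32e-06). *Gbe1*, the branching enzyme, was at 13.4, 13.03 and 15.8 CPM in control and 52.5, 72.4 and 68.1 CPM in CGRP libraries (log2 fold change 2.18 ± 0.22, edgeR adjusted p 3.00e-06), and *Pgm1*, which links glucose phosphates to glycogen, at 18.7, 23.3 and 20.9 CPM in control and 120.4, 101 and 88.8 CPM in CGRP libraries (log2 fold change 2.29 ± 0.22, edgeR adjusted p 2.26e-06). All 3 had CGRP libraries well above the controls. Other glucose genes were not called or fell. *Hk2* was at 599, 542 and 545 CPM in control and 636, 566 and 498 CPM in CGRP libraries (log2 fold change 0.01 ± 0.13, edgeR adjusted p 0.976), and *Slc2a3*, the transporter GLUT3, at 65.7, 115 and 89.4 CPM in control and 109, 98.7 and 85.5 CPM in CGRP libraries (log2 fold change 0.11 ± 0.21, edgeR adjusted p 0.824). Neither passed the test, and their libraries overlapped. *Slc2a6*, a transporter of lysosomal membranes, was at 76.7, 102 and 84.1 CPM in control and 33.2, 35.9 and 24.2 CPM in CGRP libraries and fell (log2 fold change -1.498 ± 0.22, edgeR adjusted p 0.000140).

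Hypoxia genes that rose sense oxygen, fold proteins or act on vessels. *Egln3*, an oxygen-dependent prolyl hydroxylase, was at 10.6, 16.05 and 20.3 CPM in control and 139, 107 and 144 CPM in CGRP libraries (log2 fold change 3.02 ± 0.34, edgeR adjusted p 7.49e-06), and *Ero1a*, an oxidase of the endoplasmic reticulum, at 116, 130.5 and 108 CPM in control and 655, 546 and 478 CPM in CGRP libraries (log2 fold change 2.24 ± 0.21, edgeR adjusted p 1.32e-06). *Vegfa*, the growth factor for vessels, was at 401, 425 and 532 CPM in control and 1012, 956 and 929 CPM in CGRP libraries (log2 fold change 1.09 ± 0.13, edgeR adjusted p 1.84e-05). *P4ha2*, a collagen prolyl hydroxylase, was at 5.28, 8.14 and 3.41 CPM in control and 44.5, 32.5 and 35.2 CPM in CGRP libraries (log2 fold change 2.73 ± 0.30, edgeR adjusted p 6.48e-06). In each of the 4, control and CGRP libraries did not overlap. *Bnip3* (mitophagy) was at 52.3, 81.2 and 59.97 CPM in control and 235, 184 and 182 CPM in CGRP libraries (log2 fold change 1.63 ± 0.22, edgeR adjusted p 4.69e-05) and *Mif* (a cytokine) at 64.5, 73.96 and 68.5 CPM in control and 263, 258 and 276 CPM in CGRP libraries (log2 fold change 1.94 ± 0.25, edgeR adjusted p 2.79e-05), and 55.1% and 62.6% of their words are shared with other transcripts. *Hif1a*, the factor's own subunit, was at 218, 272 and 219.6 CPM in control and 391, 320.3 and 391 CPM in CGRP libraries (log2 fold change 0.63 ± 0.16, edgeR adjusted p 0.0124). The call of *Hif1a* was lost without CGRP replicate 1 or 3 or control replicate 1 or 3 (edgeR adjusted p 0.0605 to 0.0806). *Trf*, transferrin, was the member that fell, at 7.30, 11.4 and 9.39 CPM in control and 3.43, 1.23 and 2.12 CPM in CGRP libraries (log2 fold change -2.03 ± 0.56, edgeR adjusted p 0.0230), and its words are shared to 61.3%. The call of *Trf* was lost without CGRP replicate 2 or 3 or control replicate 2 or 3 (edgeR adjusted p 0.0588 to 0.0992).

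Arginine can feed nitric oxide, ornithine and polyamines, and 5 of 19 genes of this metabolism rose (26.3%) and 3 fell (15.8%). Among all tested genes 6.29% rose and 4.59% fell. *Nos2*, the inducible nitric oxide synthase, was at 3.25, 0.233 and 0.854 CPM in control and 91.8, 12.3 and 27.96 CPM in CGRP libraries (log2 fold change 5.18 ± 0.72, edgeR adjusted p 5.96e-05). *Arg1*, arginase, was at 7.30, 55.4 and 20.9 CPM in control and 488, 151 and 624 CPM in CGRP libraries (log2 fold change 3.86 ± 0.81, edgeR adjusted p 0.00330). *Slc7a2*, an arginine transporter, was at 12.2, 3.26 and 6.83 CPM in control and 63.5, 98.0 and 39.6 CPM in CGRP libraries (log2 fold change 3.25 ± 0.39, edgeR adjusted p 1.33e-05). CGRP libraries exceeded every control library for all 3, with a wide spread among them in *Nos2* and *Arg1*. *Smox*, spermine oxidase, was at 296, 323 and 403 CPM in control and 780.3, 786 and 808 CPM in CGRP libraries (log2 fold change 1.21 ± 0.16, edgeR adjusted p 4.98e-05), and *Sms*, spermine synthase, was at 39.0, 37.7 and 37.1 CPM in control and 19.8, 21.2 and 20.7 CPM in CGRP libraries and fell (log2 fold change -0.88 ± 0.19, edgeR adjusted p 0.00483). *Odc1*, the entry to polyamines, was at 1583, 1469 and 1692 CPM in control and 1614, 1606 and 1786 CPM in CGRP libraries and was not called (log2 fold change 0.08 ± 0.10, edgeR adjusted p 0.742). *Azin1* and *Slc7a1* made up the rest of the falls (-0.47 ± 0.13 and -0.47 ± 0.15). The number that fell was 1 without CGRP replicate 1 or 2. The call of *Azin1* was lost without CGRP replicate 1 or 2 (edgeR adjusted p 0.0537 to 0.0836). The call of *Slc7a1* was lost without CGRP replicate 1 or 2, control replicate 2 or 3 or IAIE_CGRP replicate 1, 2 or 3 (edgeR adjusted p 0.0510 to 0.186).

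Iron handling and NRF2 antioxidant genes rose in 13 of 27 cases (48.1%) and fell in 4 (14.8%), against 6.29% and 4.59% of all tested genes. Their median log2 fold change was 0.50. Ferritin stores iron, ferroportin exports it and NRF2 drives enzymes that remove peroxides and quinones. *Slc40a1*, ferroportin, was at 12.6, 13.03 and 12.2 CPM in control and 31.7, 50.97 and 28.8 CPM in CGRP libraries (log2 fold change 1.55 ± 0.22, edgeR adjusted p 6.48e-05). *Prdx1*, a peroxiredoxin, was at 1811, 1517 and 1424 CPM in control and 3322, 5061 and 3605 CPM in CGRP libraries (log2 fold change 1.34 ± 0.17, edgeR adjusted p 1.96e-05). *Nqo1*, a quinone reductase, was at 8.52, 13.7 and 6.62 CPM in control and 33.4, 67.96 and 61.2 CPM in CGRP libraries (log2 fold change 2.48 ± 0.42, edgeR adjusted p 0.000540). These stood above every control library in all CGRP libraries, with replicate 2 the highest each time. *Cat*, catalase, was at 64.1, 70.2 and 81.7 CPM in control and 117, 203 and 178 CPM in CGRP libraries (log2 fold change 1.198 ± 0.19, edgeR adjusted p 0.000250), while *Gpx1*, a glutathione peroxidase, was at 265, 215 and 304 CPM in control and 154, 117 and 150.3 CPM in CGRP libraries and fell (log2 fold change -0.89 ± 0.17, edgeR adjusted p 0.00135). *Hmox1*, heme oxygenase, was at 8832, 8123 and 6955 CPM in control and 10248, 12064 and 9976 CPM in CGRP libraries (log2 fold change 0.43 ± 0.11, edgeR adjusted p 0.0167). Its groups did not overlap but its change was small. The call of *Hmox1* was lost without CGRP replicate 2 or control replicate 2 or 3 (edgeR adjusted p 0.0582 to 0.12497). The number that fell was 2 without any 1 of the CD11c libraries other than CGRP replicate 3, and 1 without that library.

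Of 20 genes of eicosanoid synthesis and reception, 4 rose (20%) and 3 fell (15%), against 6.29% and 4.59% of all tested genes. The number that fell was 1 without CGRP replicate 2 or control replicate 1. Phospholipase and cyclooxygenase make prostaglandins, whereas 5-lipoxygenase and its partner make leukotrienes. *Pla2g4a*, cytosolic phospholipase, was at 21.9, 39.8 and 26.0 CPM in control and 62.6, 140.4 and 93.4 CPM in CGRP libraries (log2 fold change 1.74 ± 0.28, edgeR adjusted p 0.000274). *Ptgs2*, cyclooxygenase-2, was at 1404, 1533 and 1376 CPM in control and 2192, 4133 and 2638 CPM in CGRP libraries (log2 fold change 1.05 ± 0.22, edgeR adjusted p 0.00310), and *Ptges*, prostaglandin E synthase, at 0, 1.86 and 1.49 CPM in control and 16.2, 6.16 and 6.19 CPM in CGRP libraries (log2 fold change 2.91 ± 0.60, edgeR adjusted p 0.00265). All 3 were higher in each CGRP library, and *Ptges* was near the floor in control libraries. *Pparg*, a lipid-sensing nuclear receptor, was at 60.5, 39.3 and 47.8 CPM in control and 13.7, 15.5 and 13.8 CPM in CGRP libraries and fell (log2 fold change -1.77 ± 0.27, edgeR adjusted p 0.000154). *Alox5ap*, the 5-lipoxygenase partner, was at 166, 140.3 and 143 CPM in control and 127, 95.0 and 91.9 CPM in CGRP libraries (log2 fold change -0.52 ± 0.15, edgeR adjusted p 0.0328). The call of *Alox5ap* was lost without CGRP replicate 2 or 3 or control replicate 1 or 3 (edgeR adjusted p 0.0564 to 0.141).

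MHC class II genes fell. These molecules carry peptides to CD4 T cells, with H2-DM loading the peptide and CIITA driving transcription. Of 10 tested, 7 fell (70%, against 4.59% of all tested genes) and none rose in any fit. The median log2 fold change was -0.88. *H2-DMa* was at 192, 177 and 152 CPM in control and 71.0, 56.1 and 62.8 CPM in CGRP libraries (log2 fold change -1.45 ± 0.20, edgeR adjusted p 4.99e-05), and *H2-DMb1* at 175, 119 and 139.6 CPM in control and 61.4, 48.3 and 54.3 CPM in CGRP libraries (log2 fold change -1.40 ± 0.20, edgeR adjusted p 6.95e-05). *H2-Ab1*, the beta chain of I-A and part of the sort gate, was at 11545, 9905 and 10166 CPM in control and 6590.4, 7194 and 6189 CPM in CGRP libraries (log2 fold change -0.66 ± 0.11, edgeR adjusted p 0.000574), and *H2-Aa*, its alpha chain, at 4921, 4389 and 4032 CPM in control and 2960.1, 3235 and 2549 CPM in CGRP libraries (log2 fold change -0.61 ± 0.13, edgeR adjusted p 0.00420). The groups stood apart in all 4. *Cd74*, the invariant chain, was at 20219, 19561 and 17664 CPM in control and 13811, 16378 and 13879 CPM in CGRP libraries and lay just outside the threshold (log2 fold change -0.38 ± 0.12, edgeR adjusted p 0.0511), being called in 15 of 24 other fits. *Ciita* was at 66.96, 70.5 and 58.9 CPM in control and 62.4, 50.97 and 55.8 CPM in CGRP libraries with overlapping groups (log2 fold change -0.21 ± 0.25, edgeR adjusted p 0.697).

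MHC class I presentation showed another pattern, with 9 of 22 genes higher (40.9%, against 6.29% of all tested genes) and 0 lower. Without CGRP replicate 2, control replicate 2 or control replicate 3 the number higher was 5. *Tap1*, a peptide transporter, was at 73.0, 75.4 and 96.04 CPM in control and 265, 325 and 181 CPM in CGRP libraries (log2 fold change 1.65 ± 0.20, edgeR adjusted p 1.48e-05). *Tapbp*, tapasin, was at 199.7, 203 and 195 CPM in control and 353, 429 and 297 CPM in CGRP libraries (log2 fold change 0.85 ± 0.16, edgeR adjusted p 0.00116), and *Nlrc5*, the class I transactivator, at 46.7, 68.1 and 59.8 CPM in control and 116, 165 and 82.1 CPM in CGRP libraries (log2 fold change 1.04 ± 0.22, edgeR adjusted p 0.00274). These 3 rose in every CGRP library. The classical heavy chains were not called. *H2-K1* was at 1075, 1008 and 1114 CPM in control and 1051, 1095 and 923 CPM in CGRP libraries (log2 fold change -0.06 ± 0.13, edgeR adjusted p 0.856), and *H2-D1* at 3426, 3030.4 and 3297 CPM in control and 3021, 3578 and 3004 CPM in CGRP libraries (log2 fold change -0.02 ± 0.12, edgeR adjusted p 0.946), with overlapping libraries. *H2-T22*, a nonclassical chain, was at 16.2, 34.2 and 35.2 CPM in control and 109, 145 and 79.8 CPM in CGRP libraries (log2 fold change 1.92 ± 0.29, edgeR adjusted p 0.000163). It shares 63.6% of its sampled transcript words with other transcripts, most with *H2-T10*, so its own share of the counts is uncertain.

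Of 18 costimulatory and checkpoint ligands tested, 3 rose and 3 fell (16.7% each, against 6.29% and 4.59% of all tested genes). *Cd274*, which encodes PD-L1, was at 309, 355 and 374 CPM in control and 798, 973 and 837 CPM in CGRP libraries (log2 fold change 1.33 ± 0.16, edgeR adjusted p 1.16e-05). *Pdcd1lg2*, which encodes PD-L2, was at 17.4, 20.7 and 19.6 CPM in control and 64.5, 63.8 and 77.5 CPM in CGRP libraries (log2 fold change 1.83 ± 0.33, edgeR adjusted p 0.000901), and *Lgals9*, galectin-9, at 40.2, 39.1 and 32.4 CPM in control and 118, 127 and 73.3 CPM in CGRP libraries (log2 fold change 1.52 ± 0.20, edgeR adjusted p 3.44e-05). All CGRP libraries were above the controls. *Cd86* was at 341, 321 and 285 CPM in control and 323, 399.6 and 351 CPM in CGRP libraries (log2 fold change 0.18 ± 0.13, edgeR adjusted p 0.487) and *Cd40* at 107, 90.2 and 105 CPM in control and 111, 136 and 104 CPM in CGRP libraries (log2 fold change 0.22 ± 0.15, edgeR adjusted p 0.451), neither past the test. *Cd83*, a marker of mature dendritic cells, was at 1055, 964 and 1006 CPM in control and 732, 680.3 and 645 CPM in CGRP libraries and fell (log2 fold change -0.56 ± 0.14, edgeR adjusted p 0.0121). *Icosl*, a ligand of ICOS, and *Vsir*, which encodes the checkpoint ligand VISTA, also fell (-0.90 ± 0.26 and -0.74 ± 0.23). The call of *Icosl* was lost without CGRP replicate 1, 2 or 3 or control replicate 1, 2 or 3 (edgeR adjusted p 0.0508 to 0.0988). The call of *Vsir* was lost without CGRP replicate 2 or 3, control replicate 1 or 3, IAIE_CGRP replicate 3 or IAIE_control replicate 3 (edgeR adjusted p 0.0513 to 0.212). The number that fell was 1 without CGRP replicate 2 or 3, or without control replicate 1 or 3.

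Receptors for immune complexes, microbes and complement were examined next. *Fcgr1*, the high-affinity receptor for IgG, was at 20.7, 59.8 and 32.01 CPM in control and 155, 108 and 132 CPM in CGRP libraries (log2 fold change 1.78 ± 0.25, edgeR adjusted p 5.96e-05). The list of Fc gamma receptors and their signaling gave 3 higher (27.3%) and 1 lower (9.09%) of 11 tested, against 6.29% and 4.59% of all tested genes. The number lower was 2 without CGRP replicate 1. *Plcg2*, a phospholipase downstream and the member that fell, was at 212, 176 and 171 CPM in control and 113, 99.2 and 122 CPM in CGRP libraries (log2 fold change -0.74 ± 0.14, edgeR adjusted p 0.00127). *Fcgr4* was at 2.03, 6.28 and 7.68 CPM in control and 6.87, 3.69 and 3.72 CPM in CGRP libraries and was not called (log2 fold change -0.20 ± 0.55, edgeR adjusted p 0.893). *Fcgr2b*, the inhibitory receptor, was at 203, 205 and 166 CPM in control and 481, 399 and 449 CPM in CGRP libraries and rose (log2 fold change 1.21 ± 0.13, edgeR adjusted p 5.78e-06), and *Fcgr3*, an activating one, was at 174, 210.5 and 173 CPM in control and 529, 456 and 493 CPM in CGRP libraries and rose (log2 fold change 1.41 ± 0.14, edgeR adjusted p 2.51e-06). *Clec4n*, which encodes dectin-2, was at 85.6, 115 and 84.5 CPM in control and 364, 454 and 514 CPM in CGRP libraries (log2 fold change 2.22 ± 0.18, edgeR adjusted p 3.55e-07), and *Clec4d*, its partner at fungal surfaces, at 158, 169 and 145 CPM in control and 288, 303 and 315 CPM in CGRP libraries (log2 fold change 0.94 ± 0.13, edgeR adjusted p 4.37e-05). *Mgl2*, a galactose lectin of dermal-type dendritic cells, was at 251, 202 and 217 CPM in control and 82.4, 68.9 and 83.2 CPM in CGRP libraries and fell (log2 fold change -1.51 ± 0.20, edgeR adjusted p 4.37e-05). Of 21 Toll-like receptors and adaptors 2 rose (9.52%) and 1 fell (4.76%), near the 6.29% and 4.59% of all tested genes. The number that rose was 1 without CGRP replicate 2 or control replicate 2, and the number that fell was 2 without control replicate 2. *Tlr4*, the sensor of lipopolysaccharide, was at 33.7, 39.3 and 36.7 CPM in control and 66.4, 83.2 and 95.6 CPM in CGRP libraries and rose (log2 fold change 1.16 ± 0.19, edgeR adjusted p 0.000276), and *Irak3*, an inhibitory kinase relative, changed by 0.79 ± 0.21. The call of *Irak3* was lost without CGRP replicate 2 or control replicate 2 or 3 (edgeR adjusted p 0.0703 to 0.137). *Tlr9*, the sensor of unmethylated DNA, was at 73.9, 102 and 87.1 CPM in control and 47.3, 34.2 and 32.9 CPM in CGRP libraries (log2 fold change -1.205 ± 0.20, edgeR adjusted p 0.000341). *C3ar1*, the receptor for the complement fragment C3a, was at 245, 240.0 and 229.9 CPM in control and 464, 383 and 431 CPM in CGRP libraries (log2 fold change 0.84 ± 0.11, edgeR adjusted p 5.04e-05).

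Of 18 lining and resident macrophage markers, 2 rose (11.1%) and 4 fell (22.2%), against 6.29% and 4.59% of all tested genes. The members that rose were *Vsig4* and *Sparc*, the latter given below with the matrix genes. Those that rose numbered 1 without CGRP replicate 1 or control replicate 2 or 3 and 4 without control replicate 1, and 7 fell without CGRP replicate 1. *Vsig4*, a complement receptor of resident macrophages, was at 49.1, 44.4 and 35.9 CPM in control and 86.2, 125 and 51.9 CPM in CGRP libraries and rose (log2 fold change 1.02 ± 0.30, edgeR adjusted p 0.0304). The call of *Vsig4* was lost without CGRP replicate 1 or 2 or control replicate 2 or 3 (edgeR adjusted p 0.0648 to 0.197). *Cd163*, the hemoglobin scavenger receptor, was at 466, 416 and 346 CPM in control and 231, 177 and 177 CPM in CGRP libraries (log2 fold change -1.07 ± 0.19, edgeR adjusted p 0.000925). Outside this list, *Lyz2*, lysozyme, was at 5361, 3706 and 3969 CPM in control and 2742, 2854 and 2401 CPM in CGRP libraries (log2 fold change -0.70 ± 0.15, edgeR adjusted p 0.00306), and *Dpp4* at 16.6, 30.9 and 25.4 CPM in control and 7.25, 6.89 and 3.36 CPM in CGRP libraries (log2 fold change -2.07 ± 0.44, edgeR adjusted p 0.00322). *Cd163*, *Lyz2* and *Dpp4* were each lower in every CGRP library than in any control library. *Ccr7*, the receptor that guides dendritic cells to lymph nodes, was at 200.5, 257 and 259 CPM in control and 512, 591 and 615 CPM in CGRP libraries (log2 fold change 1.26 ± 0.17, edgeR adjusted p 5.32e-05). *Ccr2*, the receptor of recruited monocytes, was at 120.1, 137 and 123 CPM in control and 101, 73.4 and 86.5 CPM in CGRP libraries and did not pass (log2 fold change -0.54 ± 0.18, edgeR adjusted p 0.0672), being called in 11 of 24 other fits.

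CXC chemokines rose in 6 of 13 cases (46.2%) and CC chemokines in 4 of 12 (33.3%), against 6.29% of all tested genes. None was lower in any fit. *Cxcl5*, which attracts neutrophils, was at 27.2, 16.5 and 25.4 CPM in control and 188, 299.9 and 336 CPM in CGRP libraries (log2 fold change 3.59 ± 0.39, edgeR adjusted p 5.45e-06), and *Cxcl3*, of the same group, at 1511, 1060.1 and 1145 CPM in control and 2749, 3868 and 3154 CPM in CGRP libraries (log2 fold change 1.39 ± 0.16, edgeR adjusted p 7.49e-06). *Ppbp*, a platelet-type chemokine that is also among the erythroid and platelet markers, was at 6.90, 9.77 and 0.854 CPM in control and 50.9, 56.6 and 67.3 CPM in CGRP libraries (log2 fold change 3.35 ± 0.45, edgeR adjusted p 4.13e-05). Each was above all controls in all CGRP libraries. *Cxcl2*, another neutrophil attractant, was at 3481, 3022 and 2921 CPM in control and 2899, 4648 and 3589 CPM in CGRP libraries with overlap and was not called (log2 fold change 0.24 ± 0.17, edgeR adjusted p 0.477). *Cxcl10*, an interferon-inducible attractant of T cells, was at 58.03, 83.7 and 79.8 CPM in control and 325, 254 and 106 CPM in CGRP libraries (log2 fold change 1.62 ± 0.33, edgeR adjusted p 0.00265). *Ccl3* was at 107, 114 and 117 CPM in control and 306, 385 and 194 CPM in CGRP libraries (log2 fold change 1.39 ± 0.20, edgeR adjusted p 0.000116). *Ccl5* was at 61.7, 117 and 112 CPM in control and 305, 623 and 183 CPM in CGRP libraries (log2 fold change 1.92 ± 0.39, edgeR adjusted p 0.00250). The 3 share the lowest CGRP value in replicate 3. *Ccl2*, which attracts monocytes, was at 240.2, 254 and 137 CPM in control and 224, 177 and 135 CPM in CGRP libraries and was not called (log2 fold change -0.23 ± 0.20, edgeR adjusted p 0.557).

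Some inflammatory cytokines and antagonists rose. Of 22 tested, 8 rose (36.4%, against 6.29% of all tested genes) and none fell in any fit. The number that rose was 3 to 5 without CGRP replicate 1 or 2 or without any 1 of the control libraries. *Il15*, a growth factor for lymphocytes, was at 5.28, 10.7 and 9.60 CPM in control and 42.4, 35.7 and 13.3 CPM in CGRP libraries (log2 fold change 1.79 ± 0.39, edgeR adjusted p 0.00430). *Il1rn*, the antagonist of interleukin-1, was at 2045, 1692 and 1632 CPM in control and 2742, 2584 and 2145 CPM in CGRP libraries (log2 fold change 0.48 ± 0.14, edgeR adjusted p 0.0308), and *Tnf* at 109.6, 127 and 101 CPM in control and 169, 208 and 133 CPM in CGRP libraries (log2 fold change 0.59 ± 0.18, edgeR adjusted p 0.0361). Their groups did not overlap, but the last 2 changed by small amounts. *Il1b* was at 3486, 3283 and 2983 CPM in control and 2422, 3220.4 and 2145 CPM in CGRP libraries (log2 fold change -0.32 ± 0.17, edgeR adjusted p 0.283) and *Il6* at 178, 133 and 161 CPM in control and 152, 185 and 150.1 CPM in CGRP libraries (log2 fold change 0.05 ± 0.26, edgeR adjusted p 0.948), both overlapping and not called. The call of *Il1rn* was lost without CGRP replicate 1 or 2 or control replicate 2 or 3 (edgeR adjusted p 0.0852 to 0.158). The call of *Tnf* was lost without CGRP replicate 1 or 2 or control replicate 1, 2 or 3 (edgeR adjusted p 0.0511 to 0.207).

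The receptor and its textbook pathway were examined for the treatment itself. *Calcrl* was at 43.02, 32.3 and 49.3 CPM in control and 36.8, 45.6 and 41.2 CPM in CGRP libraries and did not pass (log2 fold change -0.01 ± 0.22, edgeR adjusted p 0.986). *Ramp3*, which turns the receptor toward adrenomedullin, was at 212, 186 and 179 CPM in control and 273, 331 and 311 CPM in CGRP libraries (log2 fold change 0.67 ± 0.13, edgeR adjusted p 0.00188), and *Adm*, adrenomedullin, at 5.28, 4.65 and 3.63 CPM in control and 33.004, 25.1 and 27.96 CPM in CGRP libraries (log2 fold change 2.69 ± 0.29, edgeR adjusted p 5.05e-06). Both were above the controls in all CGRP libraries. *Ramp1* was at 30.8, 15.4 and 24.3 CPM in control and 9.35, 3.69 and 5.66 CPM in CGRP libraries and fell (log2 fold change -1.89 ± 0.39, edgeR adjusted p 0.00307). Of 30 genes of cyclic AMP signaling, 1 rose and 2 fell, against 10.9% of all tested genes called. *Akap13*, an anchor for protein kinase A, was at 1353, 1284 and 1508 CPM in control and 758, 967 and 833 CPM in CGRP libraries (log2 fold change -0.70 ± 0.13, edgeR adjusted p 0.00149). *Adcy6*, an adenylyl cyclase, rose and *Adcy7*, another, fell (1.58 ± 0.41 and -0.74 ± 0.19). The call of *Adcy6* was lost without CGRP replicate 3 or control replicate 1 or 3 (edgeR adjusted p 0.0686 to 0.136). The call of *Adcy7* was lost without CGRP replicate 2 or 3 or control replicate 3 (edgeR adjusted p 0.0555 to 0.0831).

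Targets of CREB did not rise as a group. Of 27 tested, 4 rose (14.8%, against 6.29% of all tested genes) and 5 fell (18.5%, against 4.59%). The median log2 fold change was -0.09, and members were thus called in both directions. The number that fell was 2 or 3 without CGRP replicate 2 or 3 or without control replicate 1 or 3. *Crem*, an inducible CREB relative, was at 109.6, 125 and 114 CPM in control and 97.1, 116 and 119 CPM in CGRP libraries (log2 fold change -0.07 ± 0.15, edgeR adjusted p 0.848), and *Nr4a3*, an orphan receptor, at 1738, 2042 and 1882 CPM in control and 2344, 2683 and 2226 CPM in CGRP libraries (log2 fold change 0.36 ± 0.14, edgeR adjusted p 0.127). Neither was called. *Nr4a2* was at 144, 90.7 and 113 CPM in control and 59.1, 58.6 and 56.1 CPM in CGRP libraries and fell (log2 fold change -0.996 ± 0.19, edgeR adjusted p 0.00129). *Thbs1*, thrombospondin, one of the most abundant of these transcripts, was at 4811, 7206 and 6959 CPM in control and 16956, 19776 and 20680.0 CPM in CGRP libraries and rose (log2 fold change 1.60 ± 0.25, edgeR adjusted p 0.000210). The full CREB site TGACGTCA stood in 3 of 25 promoters of the list (12%), in 3.03% of promoters of tested genes, in 1.89% for genes that rose and in 2.64% for genes that fell.

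Immediate early genes are those that cells switch on within minutes of a stimulus. Of 27 tested, 9 fell (33.3%) and 1 rose (3.70%), against 4.59% and 6.29% of all tested genes. The median was -0.30, and 6 to 10 fell when any 1 library was left out. *Fosb* was at 423, 468 and 533 CPM in control and 230.3, 203 and 249 CPM in CGRP libraries (log2 fold change -1.06 ± 0.12, edgeR adjusted p 1.16e-05), *Klf6* at 1432, 1241 and 1361 CPM in control and 936, 1008 and 954 CPM in CGRP libraries (log2 fold change -0.48 ± 0.11, edgeR adjusted p 0.00706) and *Btg2*, an antiproliferative gene, at 116, 132 and 122 CPM in control and 90.2, 69.9 and 69.6 CPM in CGRP libraries (log2 fold change -0.69 ± 0.15, edgeR adjusted p 0.00406). Control libraries were above CGRP libraries in all 3. *Ier3*, the one member that rose, was at 151, 155 and 147 CPM in control and 280.4, 288 and 291 CPM in CGRP libraries (log2 fold change 0.92 ± 0.12, edgeR adjusted p 2.90e-05), and *Egr1* was at 269, 199 and 186 CPM in control and 264, 163 and 183 CPM in CGRP libraries with overlap and was not called (log2 fold change -0.10 ± 0.18, edgeR adjusted p 0.831). Of 27 genes of NF-kB subunits and feedback inhibitors 1 rose (3.70%) and 2 fell (7.41%), near the 6.29% and 4.59% of all tested genes. The number that fell lay between 1 and 4 over the fits without 1 library. Fits without CGRP replicate 1 or 3, control replicate 1 or any IAIE_CGRP library gave 1, and those without IAIE_control replicate 1 or 3 gave 4. *Tnip3*, an inhibitor of NF-kB, was at 492, 461 and 438 CPM in control and 191, 196 and 188 CPM in CGRP libraries (log2 fold change -1.27 ± 0.17, edgeR adjusted p 3.17e-05), whereas *Nfkbia*, the classical inhibitor, was at 793, 865 and 842 CPM in control and 978, 963 and 993 CPM in CGRP libraries and was not called (log2 fold change 0.23 ± 0.10, edgeR adjusted p 0.186).

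Genes of proliferation were lower in part. Of 41 cell cycle genes, 7 fell (17.1%, against 4.59% of all tested genes) and 2 rose (4.88%, against 6.29%), with a median log2 fold change of -0.64. The number that fell was 4 without CGRP replicate 2 or without control replicate 1 or 2, and that rose 1 without CGRP replicate 1 or control replicate 3. *Mki67*, the Ki-67 antigen of cycling cells, was at 154, 173 and 135 CPM in control and 91.8, 61.6 and 76.6 CPM in CGRP libraries (log2 fold change -1.005 ± 0.20, edgeR adjusted p 0.00189), and *Top2a*, topoisomerase II, at 33.7, 44.7 and 42.5 CPM in control and 18.1, 7.63 and 12.4 CPM in CGRP libraries (log2 fold change -1.66 ± 0.34, edgeR adjusted p 0.00245). *Ccnd2*, a cyclin of the entry into the cycle, was at 72.6, 99.5 and 102 CPM in control and 179, 279.7 and 174 CPM in CGRP libraries and rose (log2 fold change 1.198 ± 0.23, edgeR adjusted p 0.00169). In each the groups stood apart. Of 47 lysosomal genes 2 rose (4.26%) and 5 fell (10.6%), against 6.29% and 4.59% of all tested genes, with a median of 0.02. With CGRP replicate 1 left out 9 were lower, and those higher were 0 without control replicate 1 and 1 without CGRP replicate 1 or 2 or control replicate 2. *Man2b1*, a mannosidase, was lower at 212, 218 and 241 CPM in control and 138, 122 and 109.6 CPM in CGRP libraries (log2 fold change -0.86 ± 0.13, edgeR adjusted p 0.000155) and *Psap*, the precursor of the saposins, lower at 2294, 2262 and 2662 CPM in control and 1640.5, 1834 and 1673 CPM in CGRP libraries (log2 fold change -0.49 ± 0.10, edgeR adjusted p 0.00380).

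Proteases of the matrix rose in 6 of 17 cases (35.3%) and fell in 1 (5.88%), against 6.29% and 4.59% of all tested genes. *Mmp13*, a collagenase, was at 15.4, 14.4 and 18.8 CPM in control and 86.2, 79.5 and 95.6 CPM in CGRP libraries (log2 fold change 2.42 ± 0.27, edgeR adjusted p 6.48e-06), and *Mmp14*, a membrane-bound activator of other proteases, at 15.4, 34.4 and 21.98 CPM in control and 69.1, 56.4 and 74.5 CPM in CGRP libraries (log2 fold change 1.45 ± 0.24, edgeR adjusted p 0.000373). *Mmp19* was at 1393, 1332 and 1227 CPM in control and 552, 677 and 618 CPM in CGRP libraries and fell (log2 fold change -1.10 ± 0.13, edgeR adjusted p 1.33e-05). The direction thus differed within the family, with no overlap of the libraries in any of the 3. Adhesion genes split evenly, 7 higher and 7 lower of 35 (20% each, against 6.29% and 4.59% of all tested genes). *Cd44*, the hyaluronan receptor, was at 2041, 1539.8 and 1939.6 CPM in control and 933, 897 and 912 CPM in CGRP libraries (log2 fold change -1.01 ± 0.12, edgeR adjusted p 1.31e-05), and *Itgb7*, a homing integrin, at 175, 169.8 and 175 CPM in control and 71.0, 63.8 and 63.01 CPM in CGRP libraries (log2 fold change -1.39 ± 0.25, edgeR adjusted p 0.000769), both lower. *Itgb8*, which with *Itgav* activates TGF-beta, was at 31.2, 33.5 and 34.4 CPM in control and 77.5, 134 and 148 CPM in CGRP libraries (log2 fold change 1.86 ± 0.33, edgeR adjusted p 0.000697), and *Itgav* at 172, 170.3 and 168 CPM in control and 265, 297 and 311 CPM in CGRP libraries (log2 fold change 0.78 ± 0.16, edgeR adjusted p 0.00335), both higher. *Fn1*, fibronectin, was at 6365, 5469.6 and 5486 CPM in control and 2792, 2782 and 2481 CPM in CGRP libraries and fell (log2 fold change -1.10 ± 0.26, edgeR adjusted p 0.00843). *Inhba*, a subunit of activin, was at 159, 167 and 279.6 CPM in control and 568, 696 and 598 CPM in CGRP libraries and rose (log2 fold change 1.61 ± 0.34, edgeR adjusted p 0.00322).

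Many genes of collagen and cartilage matrix rose, several of them to levels that differed widely among the CGRP libraries. Of 23 cartilage, lubricin and matricellular genes, 13 rose (56.5%) and 1 fell (4.35%), and of 23 collagen chains 8 rose (34.8%) and 0 fell. The shares among all tested genes were 6.29% and 4.59%. Of the genes that rose, 7 of the 13 and 2 of the 8 were at or under 3 counts in every control library. The collagens that rose numbered 5 without CGRP replicate 1 or control replicate 2, 4 without CGRP replicate 2 and 3 without control replicate 3. Over the fits with other settings the cartilage list gave 3 to 17 higher and the collagens 2 to 16, the lowest with at least 10 counts in every library and the highest with every gene of at least 1 count. limma-voom gave 6 and 2. *Dcn*, decorin, which binds collagen fibrils, was at 2.43, 1.40 and 1.92 CPM in control and 57.0, 104 and 6.37 CPM in CGRP libraries (log2 fold change 4.88 ± 0.84, edgeR adjusted p 0.000577). *Comp*, a cartilage protein, was at 4.46, 1.40 and 1.07 CPM in control and 29.4, 194 and 6.55 CPM in CGRP libraries (log2 fold change 5.21 ± 0.99, edgeR adjusted p 0.00139). *Sparc*, a collagen-binding protein that is also among the lining macrophage markers, was at 19.9, 23.03 and 13.9 CPM in control and 113, 97.8 and 73.1 CPM in CGRP libraries (log2 fold change 2.33 ± 0.37, edgeR adjusted p 0.000274). CGRP replicate 3 was the lowest CGRP library for each, and for *Dcn* and *Comp* it lay nearer to the controls than to replicate 2. Smooth muscle genes followed another order. *Myh11*, smooth muscle myosin, was at 0, 3.72 and 0.213 CPM in control and 204, 0 and 72.03 CPM in CGRP libraries (log2 fold change 5.95 ± 1.28, edgeR adjusted p 0.00387), and *Acta2*, smooth muscle actin, at 0, 1.63 and 1.28 CPM in control and 77.8, 0 and 46.9 CPM in CGRP libraries (log2 fold change 5.21 ± 1.21, edgeR adjusted p 0.00698). They were listed at 0 in CGRP replicate 2, where *Comp* was highest. In CGRP replicate 1 all 5 stood above every control library.

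**Figure D4:**
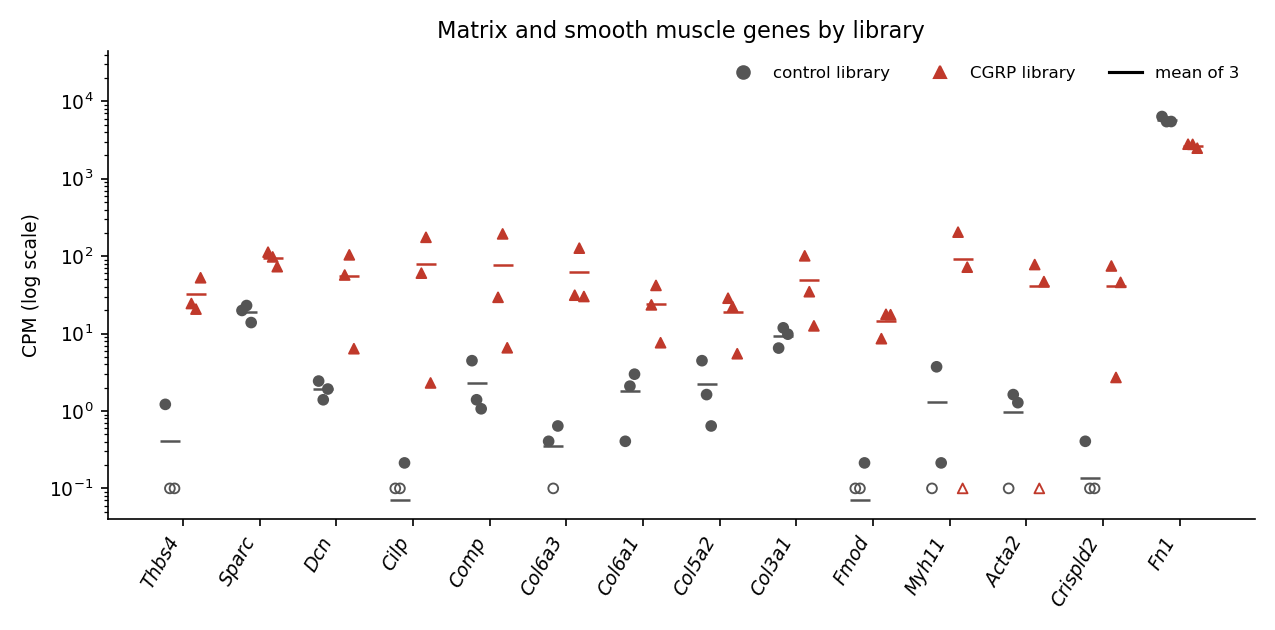
CPM of 14 matrix and smooth muscle genes on a log axis, with a gray circle for each control library, a red triangle for each CGRP library and a line at each mean, and open symbols at 0.1 CPM for libraries with a count of 0. The CGRP triangles of *Cilp*, *Comp*, *Myh11* and *Crispld2* spread widely, those of *Sparc* lie close together, and *Fn1* is lower with CGRP.

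The summed chondrocyte genes stood at 13.4, 9.07 and 13.2 CPM in control and 73.4, 438 and 14.2 CPM in CGRP libraries and summed endothelial genes at 291, 60.01 and 78.5 CPM in control and 197, 81.3 and 192 CPM in CGRP libraries. Chondrocyte sums were highest in CGRP replicate 2 and mural sums in replicates 1 and 3, while endothelial sums overlapped. The part of such cells in the matrix genes was not tested, nor was that of RNA carried over from them. *Col3a1* was at 6.49, 11.9 and 9.82 CPM in control and 101, 34.7 and 12.6 CPM in CGRP libraries (log2 fold change 2.35 ± 0.75, edgeR adjusted p 0.0489), and *Col1a1* was at 9.33, 10.2 and 5.76 CPM in control and 81.8, 12.6 and 24.8 CPM in CGRP libraries and did not pass (log2 fold change 2.27 ± 0.88, edgeR adjusted p 0.114). In both, the lowest CGRP library stood just above the highest control library, and the highest was several times that. The call of *Col3a1* was lost without CGRP replicate 1 or 2, control replicate 1, 2 or 3, IAIE_CGRP replicate 1, 2 or 3 or IAIE_control replicate 3 (edgeR adjusted p 0.0521 to 0.375).

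The last comparison asked whether the CGRP effect differed between CD11c cells and the IAIE cells, as an interaction in the same fit. It passed for 18 of 11927 genes (0.151%), 16 with a higher and 2 with a lower log2 fold change in CD11c than in IAIE cells. That number depended on the fit: 7 of the 18 were called with robust estimation of the spread, which was run first, and 2 in limma-voom. The plain fit was taken after both counts had been seen. Without control replicate 2 of the CD11c libraries 7 genes passed, without their control replicate 3 or without IAIE_CGRP replicate 2 it was 6, and without CD11c_CGRP replicate 2 there were 29. Same-numbered CGRP libraries of the subsets deviated together (correlations 0.331, 0.117 and 0.189). Same-numbered control libraries hardly did (0.076, 0.015 and 0.007), and CD11c control replicate 3 correlated better with IAIE control replicate 2 (0.077). With replicate number and treatment together as an explant block, in control and CGRP libraries alike, 52 genes passed, among them all 18.

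Most genes of the interaction encode matrix. *Thbs4*, a matricellular protein of tendon, was at 1.22, 0 and 0 CPM in control and 24.4, 20.7 and 52.6 CPM in CGRP libraries (at least 38.2-fold higher against the floor, edgeR adjusted p 5.48e-06), whereas the IAIE cells were at 9.32 ± 1.72 CPM in control and 0.725 ± 0.515 CPM in CGRP libraries (mean ± SD, n = 3). *Col6a1*, a chain of type VI collagen, was at 0.406, 2.09 and 2.99 CPM in control and 23.5, 41.9 and 7.61 CPM in CGRP libraries (log2 fold change 3.57 ± 0.78, edgeR adjusted p 0.00430), whereas the IAIE cells were at 31.8 ± 30.04 CPM in control and 2.23 ± 0.338 CPM in CGRP libraries (mean ± SD, n = 3). *Col5a2*, a chain of type V collagen, was at 4.46, 1.63 and 0.640 CPM in control and 28.6, 22.2 and 5.49 CPM in CGRP libraries (log2 fold change 3.21 ± 0.71, edgeR adjusted p 0.00453), whereas the IAIE cells were at 20.97 ± 3.32 CPM in control and 2.20 ± 2.15 CPM in CGRP libraries (mean ± SD, n = 3). For all 3 the mean was higher with CGRP in CD11c cells and lower with CGRP in IAIE cells. The median log2 fold change of the 14 fibroblast markers was 1.92 in CD11c cells, where a gene at or under the floor counts with its bound, and -1.49 in IAIE cells, and that of the 23 collagen chains 1.99 and -1.55. In IAIE cells *Col1a1* was at 264 ± 349.5 CPM in control and 32.4 ± 18.7 CPM in CGRP libraries (mean ± SD, n = 3). The part of fibroblasts in the interaction was not tested. *Sparc*, detected in every library of the CD11c cells, was in IAIE cells at 111 ± 71.4 CPM in control and 67.8 ± 23.002 CPM in CGRP libraries (mean ± SD, n = 3) (interaction log2 difference 3.05 ± 0.50, edgeR adjusted p 0.0143). *Slc6a6*, the taurine transporter, was at 686, 688 and 633 CPM in control and 348, 336 and 272 CPM in CGRP libraries and fell (log2 fold change -1.07 ± 0.13, edgeR adjusted p 1.16e-05), and IAIE cells were at 562 ± 31.8 CPM in control and 581 ± 62.4 CPM in CGRP libraries (mean ± SD, n = 3). Its interaction (log2 difference -1.12 ± 0.18, edgeR adjusted p 0.00898) was called in all 24 other fits. *Serpinb9*, an inhibitor of granzyme B, was at 79.9, 113 and 106 CPM in control and 111, 114 and 162 CPM in CGRP libraries and was not called in CD11c cells (log2 fold change 0.36 ± 0.20, edgeR adjusted p 0.315), and IAIE cells were at 5.89 ± 1.90 CPM in control and 29.2 ± 6.45 CPM in CGRP libraries (mean ± SD, n = 3). Its interaction (log2 difference -1.95 ± 0.34, edgeR adjusted p 0.0177) was called in 19 of 24 other fits.

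**Figure D5:**
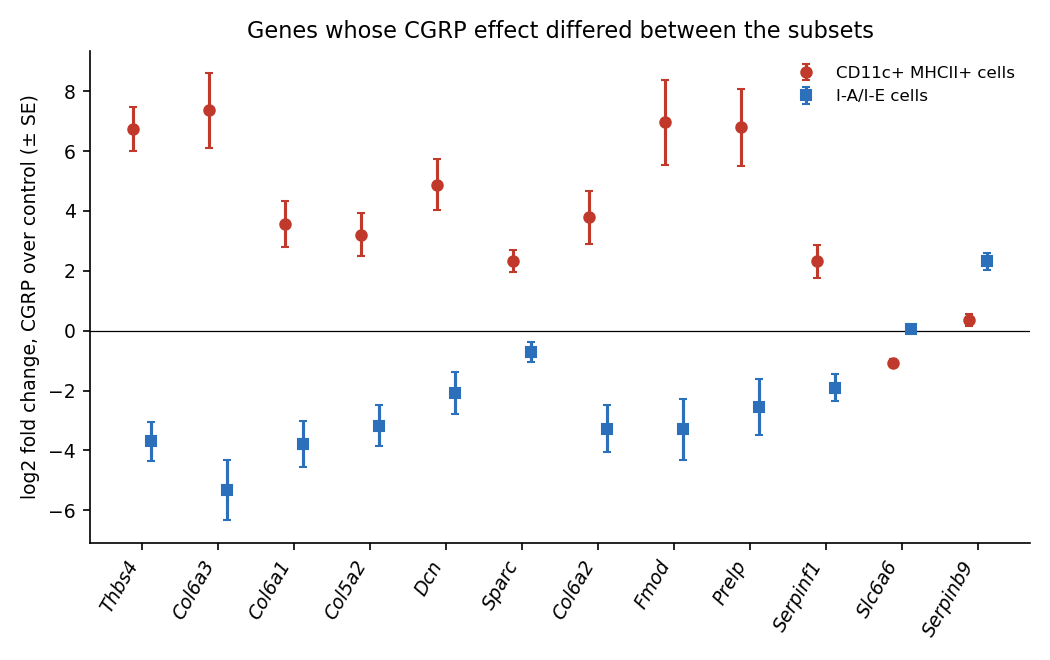
Log2 fold change (CGRP over control, with its standard error) in CD11c+ MHCII+ cells (red circles) and in IAIE cells (blue squares) for the 12 genes named for the smallest interaction p. The 10 matrix genes lie above 0 in CD11c cells and below 0 in IAIE cells, *Slc6a6* is below 0 in CD11c and near 0 in IAIE cells, and *Serpinb9* is higher above 0 in IAIE cells. Where a group lay at the floor the fitted value depends on the prior count and is no bound.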

How the data were processed

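Sorted cells from synovial explants were sequenced as stranded total RNA libraries from 5 ng RNA (Takara SMARTer pico kit). The authors used Trim Galore for trimming, HISAT2 for alignment (mm10) and featureCounts for counting, and the deposited values are raw read counts for 26699 gene symbols. Versions of these tools, and whether strand was used in counting, are not given in the sources used here, so overlapping and antisense genes may be mixed. The combined table repeats the 12 libraries, and its 6 further columns were not used since their names match no sample's labels.

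Genes were filtered by group with filterByExpr (minimum count 10, minimum total 15), library sizes were scaled by TMM, and all 12 libraries entered 1 quasi-likelihood fit with 4 group means in edgeR 4.0.16 (R 4.3.3), with Benjamini-Hochberg adjustment at 0.05 over 11927 genes and a prior count of 0.125. Log2 fold changes are given ± SE. A fold against a group with at most 3 counts in every library is a bound. It divides the mean CPM of the other group by the group's mean floor. The fit was first run with robust estimation of the spread, and the plain fit was taken after the counts of both had been seen. Other fits used RLE and upper-quartile scaling, other filters, thinning, GC and length offsets (values for 99.1% of genes), surrogate variables (sva 3.50.0), replicate and explant blocks, the 6 CD11c libraries alone, DESeq2 1.42.0, limma-voom (limma 3.58.1) and each library left out.

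The comparison, the gene lists and the matrix list were chosen with earlier results of these data known. Named genes are the 15 each way with the smallest p (called, mean of at least 5 CPM, groups apart, no predicted genes), members of the lists, whether they passed or not, and up to 10 each way with the smallest interaction p. Examples within a list were picked for their role and, where several served, for calls that held in other fits, and some items are not reported here. Coordinates are from the GRCm38 annotation, matched for 25913 symbols, and shared transcript words of 31 bases (1 in 8 sampled) mark near-copies. Promoters came from RefSeq (GRCm38.p6, 32851 promoters of 27025 genes). All 6 patterns were searched in every list, and the windows shown and the kappa B pattern were set after a first search had been seen. The patterns not given in the report were TGACNNNGC or TGAGNNNGC, in 29.6% of iron and NRF2 promoters against 31.2% of promoters of tested genes, and kappa B, in 51.7% of NF-kB list promoters against 10.4%.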

Additional observations from a re-analysis of the deposited data

Results flagged for a closer look

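The CGRP effect differed between CD11c and IAIE cells, by the interaction term of the edgeR fit, for each of the genes given here. The difference is the log2 fold change in CD11c cells minus that in IAIE cells, and where a group lay at the floor the fitted value depends on the prior count and is no bound.

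In CD11c cells *Thbs4*, *Fmod*, *Prelp*, *Col6a3* and *Cilp* were at or under 3 counts in every control library. The differences were 10.4 for *Thbs4* (edgeR adjusted p 2.74e-05), 12.7 for *Col6a3* (0.00133), 10.3 for *Fmod* (0.0150), 9.34 for *Prelp* (0.0150) and 12.5 for *Cilp* (0.0446). Against that floor the means of the CGRP libraries in CD11c cells were at least 38.2-fold, 73.6-fold, 17.2-fold, 15.3-fold and 93.0-fold higher, in the same order. These bounds hold for the mean and not for each library. *Cilp* was at 60.3, 175 and 2.30 CPM in CGRP libraries, so that replicate 3 lay far below its mean. *Cilp* was called in 12 of 23 other fits of the interaction and *Prelp* in 16 of 23.

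Other matrix genes had counts above the floor in some control library. The differences were 7.34 for *Col6a1* (edgeR adjusted p 0.00788), 7.05 for *Col6a2* (0.0150), 6.38 for *Col5a2* (0.00898), 6.96 for *Dcn* (0.00898), 3.05 for *Sparc* (0.0143) and 4.21 for *Serpinf1* (0.0150). The summed mural, chondrocyte and fibroblast markers varied among the same CGRP libraries, and their part in these differences was not tested.

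The lower differences were -1.12 for *Slc6a6* (edgeR adjusted p 0.00898), a taurine transporter, and -1.95 for *Serpinb9* (0.0177), a granzyme inhibitor.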

How the results depend on the processing

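Of the 1298 genes called for CGRP in CD11c cells, none was called in the opposite direction in any of the 24 other fits, and 642 (49.5%) were called in every other fit that tested them. Requiring an absolute log2 fold change of at least 1 left 680, and leaving out each library in turn gave 928 (without CD11c_CGRP replicate 2) to 1377 (without IAIE_control replicate 1). The totals of the other settings stayed within 1.5 times the main count, from 1230 with libraries thinned to the lowest total to 1785 at an adjusted p of 0.1. The interaction moved more, from 18 genes to 38 with 1 surrogate variable, 97 in DESeq2, 30 with GC content and length offsets and 42 at an adjusted p of 0.1. It gave 5 with at least 10 counts in every library, 171 with every gene of at least 1 count and 52 with the explant block. It gave 2 in limma-voom with quality weights and 7 with robust estimation of the spread. The robust fit was run first, and the plain fit was taken after both counts had been seen. Leaving out each library gave 6 to 29. With the replicate number as a block 1423 genes passed in CD11c cells and 36 in the interaction. In CD11c cells deviations of same-numbered control and CGRP libraries correlated at 0.199, 0.113 and -0.008, not every pair over 0.1, and control replicate 3 correlated best with CGRP replicate 2, so the numbers were not taken to pair these samples. The cause of these moves was not tested. The test was checked on drawn counts of 11439 genes, whose means in the CD11c libraries were pooled over control and CGRP before changes were set. It recovered 43% of 100 genes changed by 1 on the log2 scale and 72% of 100 changed by 2, and 8.73% of its calls were false. These shares depend on the number of genes changed in the check and are no estimate for the 1298 calls. Genes at or under 3 counts in every control library have a bound in place of a fold.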

Other observations

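Of 16 mitochondrially encoded genes *mt-Co1*, *mt-Nd5* and *mt-Nd6* rose (0.39 ± 0.10, 0.51 ± 0.11 and 0.44 ± 0.13), all 16 had a log2 fold change above 0, and 0 to 6 were called over other settings. The number was 1 without CGRP replicate 1 or 2 or control replicate 1, and 0 without control replicate 3. Of 80 nuclear-encoded respiratory chain genes 0 rose and *Ndufa13*, of complex I, fell, and that call was lost without CGRP replicate 2 or 3 or control replicate 1 or 3. None of 79 cytosolic ribosomal protein genes was called by edgeR, with a median log2 fold change of -0.28, while 26 were lower and 0 higher at an unadjusted p under 0.05. DESeq2 called 5 and limma-voom 4 of these genes, and edgeR called 6 as lower without control replicate 2, 3 without IAIE_CGRP replicate 3 and 1 without CGRP replicate 1. *Hspb1*, a small heat shock protein, was at 64.1, 66.3 and 53.6 CPM in control and 167, 106 and 101 CPM in CGRP libraries (log2 fold change 1.02 ± 0.24, edgeR adjusted p 0.00742), the 1 call among 16 heat shock and chaperone genes (6.25%, against 6.29% of all tested genes higher). Of its sampled transcript words 55.6% are shared with other transcripts. The call of *Hspb1* was lost without CGRP replicate 1 or control replicate 3 (edgeR adjusted p 0.0530 to 0.0666). *Asns*, asparagine synthetase of the amino acid response, was at 24.3, 10.2 and 20.9 CPM in control and 46.9, 35.9 and 32.6 CPM in CGRP libraries (log2 fold change 1.08 ± 0.29, edgeR adjusted p 0.0180). The call of *Asns* was lost without CGRP replicate 1 or control replicate 2 (edgeR adjusted p 0.103 to 0.109).

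Sterol synthesis genes were higher in 6 of 27 cases (22.2%, against 6.29% of all tested genes). *Idi1*, an isomerase of the isoprenoid path, was at 14.6, 20.7 and 16.4 CPM in control and 38.3, 49.0 and 71.5 CPM in CGRP libraries (log2 fold change 1.61 ± 0.29, edgeR adjusted p 0.00101), and *Hmgcs1*, an early enzyme, at 34.5, 29.8 and 30.3 CPM in control and 48.3, 53.7 and 47.96 CPM in CGRP libraries (log2 fold change 0.67 ± 0.21, edgeR adjusted p 0.0455). The call of *Hmgcs1* was lost without CGRP replicate 1, 2 or 3, control replicate 1, 2 or 3 or IAIE_CGRP replicate 1, 2 or 3 (edgeR adjusted p 0.0503 to 0.162). The number of calls fell to 1 without control replicate 1, to 2 without CGRP replicate 2 or 3 or control replicate 2 or 3, and to 3 without CGRP replicate 1.

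Single libraries held unusual values. *Aldoa*, aldolase of glycolysis, was at 711, 806 and 0.854 CPM in control and 2151, 2407 and 2099 CPM in CGRP libraries, so that control replicate 3 lay far below the other 5, and its change was not called (log2 fold change 2.14 ± 0.79, edgeR adjusted p 0.0986). *Il33*, an alarmin of stromal cells, was at 4.46, 7.44 and 0.854 CPM in control and 90.2, 3.20 and 3.89 CPM in CGRP libraries, high in CGRP replicate 1, and was not called (log2 fold change 2.95 ± 0.98, edgeR adjusted p 0.0606). *S100a8*, abundant in neutrophils, was at 0, 10.2 and 42.7 CPM in control and 2.29, 24.6 and 7.08 CPM in CGRP libraries, highest in control replicate 3.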
